A study of Mus musculus with 10 samples.

Results

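RNA profiles of 2 mouse medulloblastoma models, pooled with equal weight, were compared with those of postnatal day 7 (P7) cerebella. All 10 libraries of the series entered the comparison, chosen by their labels, namely 3 P7 cerebella, 3 SHH MB and 4 MYC/SMARCA4 tumors. Each tumor type carried a weight of 0.5, so that the comparison is that of the mean of both types with the cerebella. It addresses which genes moved in the same direction in a MYC-driven and in an SHH-driven tumor of the cerebellum. Of 50559 genes in the files, 29952 had enough counts to be tested. A gene was taken as changed the same way in both types when the mean of both types and each type alone differed from the cerebella with 1 sign at an adjusted p of at most 0.05.

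Medulloblastoma (MB) is a malignant tumor of the cerebellum. In the first days after birth, granule cell precursors (GCPs) divide in the outer layer of the cerebellum in response to Sonic hedgehog (SHH) from Purkinje cells, then leave the cell cycle and migrate inwards as young granule neurons. MYC is a transcription factor that is known to drive ribosome production, nucleotide synthesis and cell division, and SMARCA4 is an ATPase subunit of the BAF chromatin remodeling complex.

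The MYC/SMARCA4 tumors arose from GCPs of Math1-creERT2::Smarca4fl/fl mice, in which tamoxifen deletes Smarca4 in Math1-expressing cells. The GCPs received a lentiviral vector with murine Myc and were transplanted into cerebella of immunodeficient CD1nu/nu mice, and the tumors were taken at ages of 112, 96, 89 and 79 days for tumors 1 to 4. The SHH MB carried the genotype Math1-cre::Smofl/wt, in which an active Smo is switched on in Math1-expressing cells, and were labelled with an age of 7 days. The P7 cerebella came from Math1-creERT2::Smarca4fl/fl mice given tamoxifen (0.4 mg) at an age of 3 days, so that the controls share the Smarca4 deletion in Math1-expressing cells with the MYC/SMARCA4 tumors but not with the SHH MB. All RNA came from formalin-fixed paraffin-embedded (FFPE) tissue, punched from the MYC/SMARCA4 tumors and taken from the whole cerebellum in the controls. Tumor and normal tissue therefore also differ in how they were sampled, and for the MYC/SMARCA4 tumors in the age of the mice, their strain and the grafting, which cannot be told apart from the tumor itself. In such bulk samples, fewer cells of a type and less RNA per cell cannot be told apart either. The labels do not say whether each library came from a separate mouse, so that p-values measure the spread between these libraries.

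The libraries held between 5663491 and 9352109 counts. The 4 MYC/SMARCA4 tumors differed far more from each other than the other libraries did, with a chi-square per degree of freedom of 26.6 to 99.1 between pairs of tumors and 3.76 to 6.22 between pairs within the other groups. MYC/SMARCA4 tumors 1 and 3 stood apart at opposite ends. In tumor 1 the mean level of 34 genes of mitosis and spindle was 2.26 below the cerebella on the log2 scale, and in the 6 other tumors it was 1.02 to 1.27 above them. The same tumor had the highest mean level of mature granule neuron genes, at 2.90 above the cerebella, and of Purkinje cell genes, at 1.65 above them. Tumor 3 lay below the cerebella in both, by 1.12 and by 2.11. Counts of list members that passed are given with and without tumor 1, but not without tumor 3 or any other library. Tumor 1 was set apart by levels of some of these same lists, so that their counts without it are partly fixed in advance. The part of the surrounding or enclosed neurons in tumors 1 and 3 was not tested.

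**Figure D1:**
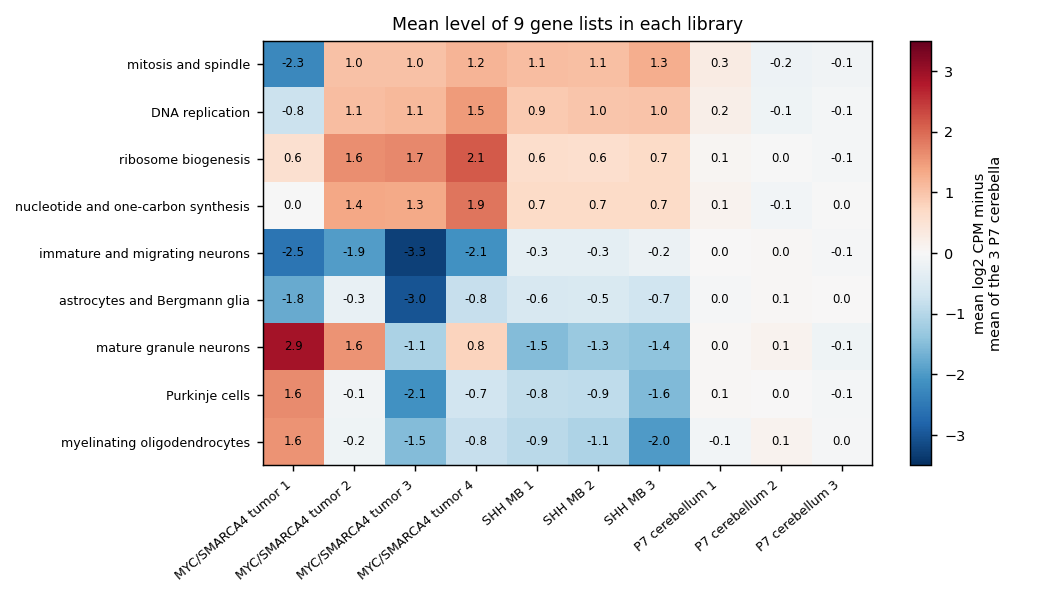
Mean level of 9 gene lists in each of the 10 libraries (columns), as mean log2 CPM over the members tested minus the mean of the 3 P7 cerebella; red is higher and blue lower. For mitosis and spindle, tumor 1 sits at -2.26 and the other 6 tumors between 1.02 and 1.27, and for immature and migrating neurons all 7 tumors lie below the cerebella.

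The targeted genes were first checked in every library. Levels are given as CPM, the count of a gene scaled to the normalized library size. Myc was at 152, 368, 1587 and 1016 CPM in MYC/SMARCA4 tumors 1 to 4, at 38.4, 33.7 and 45.7 CPM in SHH MB 1 to 3, and at 13.2, 14.3 and 13.0 CPM in the P7 cerebella. It was higher in every tumor than in any cerebellum and rose in the mean of both types by 3.70 ± 0.65 on the log2 scale (SE; edgeR quasi-likelihood test, adjusted p = 0.0310). By type, Myc rose by 5.85 ± 0.75 in MYC/SMARCA4 tumors, whereas 1.54 ± 0.64 in SHH MB did not pass (adjusted p = 0.505 by edgeR). The types differed (adjusted p = 0.00428). Reads of the vector and of the endogenous gene are counted together. Smarca4 was at 209, 244, 136 and 238 CPM in the MYC/SMARCA4 tumors, 546, 491 and 589.7 CPM in SHH MB and 221, 282 and 259 CPM in the cerebella, and transcripts of the recombined allele are counted with the others. Smo, the transmembrane activator of the SHH pathway, was at 14.1, 115, 111 and 108 CPM in the MYC/SMARCA4 tumors, 123 to 129.8 CPM in SHH MB and 64.7 to 73.9 CPM in the cerebella. Mycn, the family member that SHH signaling induces in GCPs, separated the models, with 1.24 to 9.24 CPM in the MYC/SMARCA4 tumors, 178 to 203 CPM in SHH MB and 65.9 to 94.5 CPM in the cerebella.

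In the mean of both types, 43 genes (0.144% of 29952) rose and 118 (0.394%) fell. By its own contrast, MYC/SMARCA4 changed in far more genes, with 1194 higher (3.99%) and 679 lower (2.27%), than SHH MB with 53 higher (0.177%) and 14 lower (0.0467%). Only 12 genes passed in the mean and in each type with 1 sign, 2 higher (0.00668%) and 10 lower (0.0334%). Both contrasts use the same 3 cerebella, so that these counts are not independent of each other. Of the 43 genes that rose, 37 passed in MYC/SMARCA4 tumors but not in SHH MB and 4 in SHH MB but not in MYC/SMARCA4 tumors. Of the 118 that fell, the numbers were 107 and 1. The difference between the types passed for 19 of the 43 and 49 of the 118, beside 4.68% of all genes (2.43% higher and 2.26% lower in MYC/SMARCA4 tumors), and was not shown for the others. These genes were selected with the same libraries, so that nothing is read from the comparison of these shares.

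These numbers depended strongly on single libraries. Without MYC/SMARCA4 tumor 1, 2042 genes rose (6.83% of 29877 tested) and 875 fell (2.93%), and 365 (1.22%) and 136 (0.455%) changed the same way in both types. Without tumor 3, 943 rose, 2541 fell, and 39 and 92 changed the same way. Without any 1 of the P7 cerebella or of the SHH MB, 0 genes rose, 13 to 23 fell and 0 changed the same way (edgeR; between 281 and 516 higher and between 185 and 272 lower in all 3 contrasts at an unadjusted p of at most 0.05). With all libraries, DESeq2 called 100 higher and 65 lower the same way, and limma on the deposited values 4 and 8. A fit that gives each group its own spread called 588 higher (1.96%) and 334 lower (1.12%) the same way and contained all 12 genes. This fit was chosen after seeing the data. As levels, all 7 tumors were above all 3 cerebella in 1643 genes (5.49%) and below them in 1281 (4.28%).

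**Figure D2:**
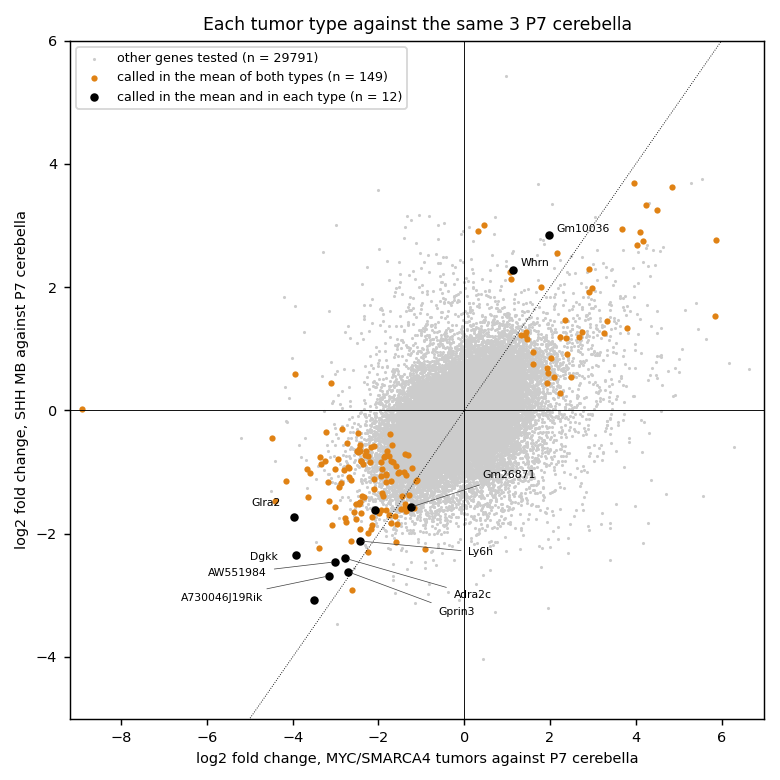
Log2 fold change of 29952 genes against the same 3 P7 cerebella in MYC/SMARCA4 tumors (x axis) and in SHH MB (y axis). Orange points are genes called in the mean of both types and the 12 black points those called in each type as well, 10 of them with their symbols; 10 of the 12 lie in the lower left. The dotted line marks equal fold changes.

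The genes that fell in both types included genes of neuronal signaling. Glra2, the alpha 2 subunit of the glycine receptor, which is typical of immature neurons, was at 1.24, 1.08, 1.40 and 1.83 CPM in the MYC/SMARCA4 tumors, 5.76, 6.48 and 7.81 CPM in SHH MB and 21.5, 22.8 and 22.3 CPM in the cerebella. The 3 groups did not overlap. It fell by 3.96 ± 0.31 on the log2 scale in MYC/SMARCA4 tumors (SE, adjusted p = 0.000138 by edgeR) and by 1.73 ± 0.30 in SHH MB (adjusted p = 0.0402), and the difference between the types passed as well (adjusted p = 0.00182). Adra2c, an alpha 2 adrenergic receptor, was at 6.94, 4.14, 3.64 and 4.64 CPM in the MYC/SMARCA4 tumors, 4.36, 8.01 and 6.25 CPM in SHH MB and 34.2, 36.4 and 28.1 CPM in the cerebella. Here the 2 tumor types overlapped, with log2 fold changes of -2.78 ± 0.32 and -2.40 ± 0.34.

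Gprin3, a neurite-related G protein regulator, fell by 2.66 ± 0.33 in the mean of both types, with 22.1, 55.6, 22.3 and 14.5 CPM in the MYC/SMARCA4 tumors, 28.2, 32.9 and 30.4 CPM in SHH MB and 238, 169 and 155 CPM in the cerebella. Ly6h, a GPI-anchored modulator of nicotinic receptors, fell by 2.28 ± 0.27, with 5.88 to 13.3 CPM in the MYC/SMARCA4 tumors, 8.71 to 13.6 CPM in SHH MB and 48.1 to 54.9 CPM in the cerebella. Dgkk, a diacylglycerol kinase, fell by 3.91 ± 0.38 in MYC/SMARCA4 tumors and by 2.35 ± 0.38 in SHH MB, and the types differed (adjusted p = 0.0339 by edgeR). Further genes of this set were A730046J19Rik, AW551984 and the noncoding Gm26871, with log2 fold changes of -2.92 ± 0.33, -2.74 ± 0.33 and -1.41 ± 0.23. In all 10 genes each tumor was below each cerebellum (4.28% of all genes), but the 10 were called from these same libraries. Glra2, Dgkk, Adra2c, Gprin3 and A730046J19Rik passed in the mean of both types under each of the 19 or 20 alternatives of library, normalization, filter or tool that tested them, whereas Gm26871 passed under 12 of 20. This covers the mean alone: none of the 10 was called in both types when any 1 cerebellum or SHH MB was left out.

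Whrn and Gm10036 were the 2 genes that rose in both types. Whrn encodes whirlin, a scaffold protein of stereocilia and synapses. Its level was 106, 89.4, 57.8 and 65.5 CPM in the MYC/SMARCA4 tumors, 149, 151 and 231 CPM in SHH MB and 35.6, 44.2 and 29.0 CPM in the cerebella. It rose more in SHH MB (2.29 ± 0.33 on the log2 scale) than in MYC/SMARCA4 tumors (1.14 ± 0.30), and the types differed (adjusted p = 0.0422 by edgeR). Gm10036, a processed pseudogene on chromosome 18 of GRCm39 (15965851 to 15966384), was at 3.47 to 11.6 CPM in the MYC/SMARCA4 tumors, 11.2 to 16.6 CPM in SHH MB and 1.42 to 2.28 CPM in the cerebella. Reads of its parent gene can fall on a processed pseudogene, so that its rise is uncertain. The adjusted p of the rise in the mean of both types was 0.0304 for Whrn and 0.0342 for Gm10036 by edgeR and reached 0.217 and 0.289 over the alternatives.

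**Figure D3:**
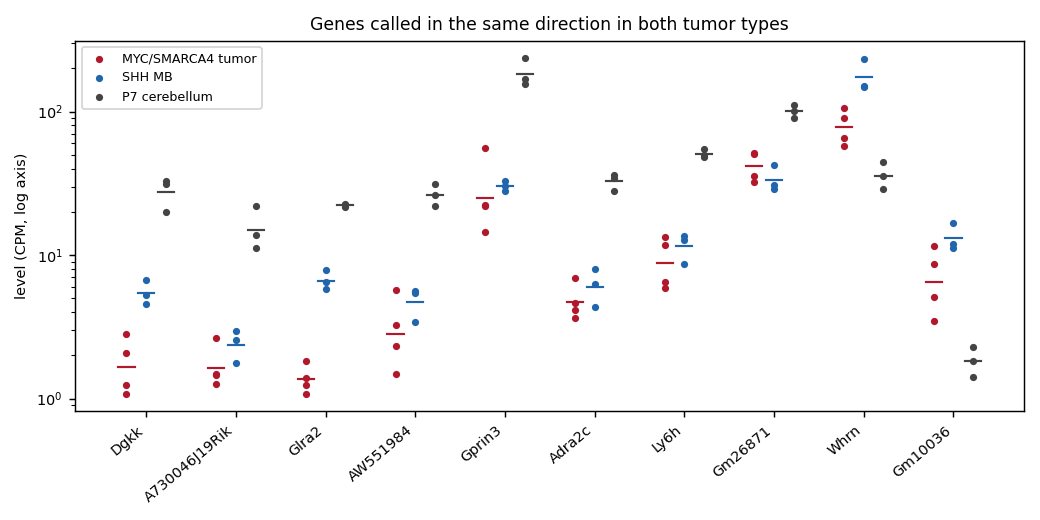
Level in CPM (log axis) of 10 of the 12 genes called the same way in both tumor types, ordered by log2 fold change; each point is a library and each bar the geometric mean of a group. In every gene the 7 tumors lie on 1 side of the 3 P7 cerebella, and in Glra2 and Dgkk the MYC/SMARCA4 tumors lie below SHH MB.

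Among the 118 genes that fell in the mean of both types, with log2 fold changes of -1.01 to -4.44, 97 (82.2%) were protein coding, against 56.8% of all genes tested. In 109 of them all 7 tumors were below all 3 cerebella, beside 4.28% of all genes. The 118 were called from these same libraries, so that nothing is read from this count. The difference in the share of protein-coding genes was not tested. The genes described next were chosen after their values were seen. Kcnj6, an inward rectifier potassium channel, was at 236, 144, 40.6 and 62.2 CPM in the MYC/SMARCA4 tumors, 205, 212 and 273 CPM in SHH MB and 792, 695 and 674 CPM in the cerebella. For Gabrg3, a GABA-A receptor subunit, the log2 fold change was -1.38 ± 0.30 in MYC/SMARCA4 tumors and -1.56 ± 0.33 in SHH MB, for Asic2, an acid-sensing ion channel, -1.18 ± 0.30 and -1.58 ± 0.33, and for Ephb1, an ephrin receptor of axon guidance, -1.38 ± 0.30 and -1.51 ± 0.33. All 3 fell in MYC/SMARCA4 tumors and missed the threshold in SHH MB (adjusted p = 0.0979, 0.102 and 0.114 by edgeR). Ptpn5, a neuronal tyrosine phosphatase, and Rac3, a small GTPase of developing neurons, were close to the threshold there, with adjusted p of 0.0563 and 0.0590. Sst, the peptide of inhibitory interneurons, was at 0.560 to 5.94 CPM in the MYC/SMARCA4 tumors, 1.56 to 2.47 CPM in SHH MB and 11.8 to 21.3 CPM in the cerebella.

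In contrast, other falls in the mean came mostly from MYC/SMARCA4 tumors. Tnc, the matrix glycoprotein tenascin C of glia, was at 5.95, 16.2, 8.68 and 12.8 CPM in these tumors, 165, 167 and 210.2 CPM in SHH MB and 270.4, 229.7 and 239 CPM in the cerebella, and the types differed by -4.04 ± 0.34 on the log2 scale (adjusted p = 6.28e-05 by edgeR). Csmd2 and Frem2, both large membrane proteins, had log2 fold changes of -2.63 ± 0.23 and -2.92 ± 0.27 in MYC/SMARCA4 tumors, against -1.12 ± 0.25 and -1.24 ± 0.28 in SHH MB. Ttr, the transthyretin of choroid plexus epithelium, was at 0.180 to 3.08 CPM in MYC/SMARCA4 tumors, whereas SHH MB with 229.5 to 1192 CPM and the cerebella with 517 to 1097 CPM overlapped. Gpr17, a receptor of oligodendrocyte precursors, Kif21b, a kinesin of neurons, Pax3, a paired-box transcription factor, and Foxj1, the factor of motile cilia, likewise had their lowest levels in MYC/SMARCA4 tumors, and the type difference passed in each. Neurod2, a factor of maturing granule neurons, was the 1 gene that passed in SHH MB (-2.24 ± 0.39) but not in MYC/SMARCA4 tumors (-0.92 ± 0.35), where the level was 127, 111, 89.0 and 36.0 CPM against 32.2 to 40.8 CPM in SHH MB and 158 to 179 CPM in the cerebella.

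The 43 genes that rose in the mean, by 1.19 to 4.33 on the log2 scale, held 22 protein-coding genes (51.2%). In 39 of the 43 all 7 tumors were above all 3 cerebella, beside 5.49% of all genes. Since the 43 were called from these same libraries, nothing is read from this count either. Several of the genes chosen for description act in the nucleolus or in transcription. Ncl, the nucleolar protein nucleolin, was at 541, 938, 1147 and 1366 CPM in the MYC/SMARCA4 tumors, 488, 449 and 516 CPM in SHH MB and 231, 202 and 203 CPM in the cerebella. Dkc1, the pseudouridine synthase of box H/ACA RNA particles, was at 53.5, 138, 141 and 156 CPM, 51.3, 54.3 and 54.3 CPM, and 28.6, 23.0 and 18.98 CPM in the same order of groups. Gnl3, nucleostemin, rose by 1.93 ± 0.35, Esf1, a nucleolar processing factor, by 1.31 ± 0.24, and Taf1d, a subunit of the RNA polymerase I factor SL1, by 1.90 ± 0.34. Polr2a, the largest subunit of RNA polymerase II, was at 375, 538, 366 and 431 CPM in the MYC/SMARCA4 tumors, 411, 350.4 and 361 CPM in SHH MB and 173, 158 and 148 CPM in the cerebella. Its log2 fold change was 1.42 ± 0.27 in MYC/SMARCA4 tumors, where it passed, and 1.23 ± 0.28 in SHH MB, where it did not (adjusted p = 0.131 by edgeR). Btaf1, which removes TBP from DNA, had 1.44 ± 0.28 and 1.28 ± 0.29 in the 2 types, and Nek7, a kinase of the mitotic spindle, 1.33 ± 0.26 and 1.22 ± 0.28.

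All rising genes but Whrn and Gm10036, those just described included, passed in 1 of the types alone. In SHH MB, Dkc1, Gnl3, Esf1 and Taf1d missed the threshold (adjusted p = 0.347, 0.349, 0.131 and 0.200 by edgeR). Psat1, an enzyme of serine synthesis, was at 51.1, 89.3, 88.6 and 156 CPM in the MYC/SMARCA4 tumors, 183, 197 and 215 CPM in SHH MB and 48.5, 42.3 and 44.9 CPM in the cerebella. It passed in SHH MB but not in MYC/SMARCA4 tumors, as did Slc66a2, and the difference between the types passed for Slc66a2 (adjusted p = 0.0439 by edgeR) but not for Psat1 (adjusted p = 0.0896). Lama5, a laminin chain, and Akna, a centrosomal factor of delaminating progenitors, rose in the mean through SHH MB: Lama5 was at 293, 346 and 409 CPM there, against 47.5 to 81.1 CPM in MYC/SMARCA4 tumors and 41.2 to 50.9 CPM in the cerebella. Egr1, an immediate early gene, Hspa9, a mitochondrial chaperone, and Rragd, a GTPase that couples amino acids to mTORC1, rose more in MYC/SMARCA4 tumors, by 3.25 ± 0.47, 1.95 ± 0.28 and 2.09 ± 0.27, than in SHH MB, where the values were 1.25 ± 0.46, 0.60 ± 0.28 and 0.54 ± 0.27. The difference passed for all 3.

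Gene lists of processes were then described by how many members passed, beside the 0.144% of all genes that rose and the 0.394% that fell. Without tumor 1 the shares of all genes were 6.83% and 2.93% in the mean of both types and 1.22% and 0.455% in both types, and the counts without tumor 1 below stand beside these. At an unadjusted p of at most 0.05, 2889 of the 29952 genes tested were higher in the mean and 1863 lower (edgeR). DESeq2 called 1257 higher and 421 lower of 47925 genes. List counts at that p or with DESeq2 below stand beside these numbers. The ribosome biogenesis list holds 50 tested genes for nucleolar processing factors. In the mean of both types 3 of 50 rose (Ncl, Dkc1 and Gnl3), 0 fell and 47 did not pass, with all 50 fitted values above 0 and 46 at an unadjusted p of at most 0.05. The median log2 fold change was 1.14 in the mean, 1.62 in MYC/SMARCA4 tumors and 0.70 in SHH MB, where the medians of all genes tested were -0.08, -0.05 and -0.09. In 32 of the 50 genes all 7 tumors were above all 3 cerebella, beside 5.49% of all genes. Without tumor 1, 46 of 50 rose (6.83% of all genes), 10 of them in both types (1.22%). With a spread for each group 46 rose (8.08% of all genes), 29 of them in both types (1.96%). Members that did not pass include Nop56, a core protein of box C/D particles, with 84.8, 103, 113 and 174 CPM in the MYC/SMARCA4 tumors, 62.9 to 66.6 CPM in SHH MB and 36.1 to 44.9 CPM in the cerebella (adjusted p = 0.0780 by edgeR), and Mybbp1a, a nucleolar MYB-binding protein, with 1.49 ± 0.40 in the mean (adjusted p = 0.125).

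Noncoding host genes of small nucleolar RNAs rose in 5 of 15 tested members (Snhg7, Snhg1, Gas5, Zfas1 and Snhg4), mostly in the MYC/SMARCA4 tumors. Gas5 was at 180.2, 213, 197 and 195 CPM there, 80.1, 75.8 and 95.3 CPM in SHH MB and 49.5, 54.9 and 51.2 CPM in the cerebella. Zfas1 was at 55.3 to 58.0 CPM in the MYC/SMARCA4 tumors, whereas SHH MB with 11.7 to 16.1 CPM overlapped the cerebella with 10.5 to 13.7 CPM. The type difference passed for all 5 genes, and the list median was 1.59 in MYC/SMARCA4 tumors and 0.17 in SHH MB. Without tumor 1, 10 of 15 rose and 2 did so in both types. Counts of a host gene can include reads of the small RNAs within it. For cytosolic ribosomal proteins 0 of 87 passed (edgeR; 14 higher and 1 lower at an unadjusted p of at most 0.05, 4 higher with DESeq2), with medians of 1.07 and 0.11 in the 2 types. Without tumor 1, 45 of these 87 rose in the mean (6.83% of all genes; edgeR), none of them in both types, and the median in MYC/SMARCA4 tumors was 1.32. For nucleotide and one-carbon synthesis 0 of 28 passed (22 higher at an unadjusted p of at most 0.05, 16 with DESeq2), with medians of 1.37 and 0.76, and in 11 of 28 all 7 tumors were above the cerebella (5.49% of all genes). Without tumor 1, 24 of these 28 rose (6.83% of all genes) and 8 did so in both types (1.22%). Cad, the enzyme that starts pyrimidine synthesis, was at 56.3 CPM in tumor 1, 319, 303 and 450.3 CPM in tumors 2 to 4, 148, 128 and 115 CPM in SHH MB and 57.4 to 73.3 CPM in the cerebella. Paics, of purine synthesis, was above the cerebella in all 7 tumors, with 115 to 186 CPM in MYC/SMARCA4 tumors and 93.7 to 109.6 CPM in SHH MB against 47.8 to 66.1 CPM (adjusted p = 0.0690 by edgeR).

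The genes of cell division turned on tumor 1. For mitosis and spindle 0 of 34 passed with all libraries (edgeR; 9 higher at an unadjusted p of at most 0.05, 1 higher with DESeq2), although all 34 fitted values were above 0 and the median was 0.76 in MYC/SMARCA4 tumors and 1.22 in SHH MB. Without tumor 1, 33 of 34 rose and 25 rose in both types, beside 6.83% and 1.22% of all genes, and in 31 the 6 other tumors were above the cerebella (9.13% of all genes, and 6.72% below them). For DNA replication 0 of 34 passed with all libraries (25 higher at an unadjusted p of at most 0.05, 10 with DESeq2), and without tumor 1, 30 rose and 17 did so in both types. The corresponding numbers without tumor 1 were 17 and 12 of 18 for homologous recombination and DNA repair, where 0 passed with all libraries (10 higher at an unadjusted p of at most 0.05, 7 with DESeq2). Of all libraries, tumor 1 had the lowest mean level in each of these lists. The higher counts without it are therefore partly fixed in advance, and nothing is read from them. Mki67, the proliferation antigen, was at 45.6 CPM in tumor 1, 771, 939 and 713 CPM in tumors 2 to 4, 1291, 1192 and 1556 CPM in SHH MB and 523, 398 and 466 CPM in the cerebella. Mcm2, a subunit of the replicative helicase, was at 16.1 CPM in tumor 1, 151 to 211 CPM in tumors 2 to 4, 109.5 to 136 CPM in SHH MB and 46.1 to 60.5 CPM in the cerebella. Its log2 fold change in the mean was 1.24 ± 0.54 (adjusted p = 0.290 by edgeR) with tumor 1 and 1.44 without it (adjusted p = 0.00172). Of replication-dependent histones 0 of 61 passed with or without tumor 1 (edgeR; with all libraries 0 at an unadjusted p of at most 0.05 and 0 with DESeq2), with medians of -0.26 and -0.25. In tumor 1 their mean level was 2.93 below the cerebella, and without it the median in MYC/SMARCA4 tumors turned to 0.10.

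Since most members of these lists rose without tumor 1, promoters are shown for the 2 genes of each list with the smallest p among those that rose in both types without tumor 1, a choice made after values were seen. The sequences are RefSeq windows of 300 bases, 250 before to 50 after the annotated start site, in GRCm38.p6 coordinates, written 5′ to 3′ along the gene. Capitals mark every match, on either strand, to 4 motifs: the E-box CACGTG, the E2F motifs TTTGGCG or TTTCCCG, the CCAAT box, and the cell cycle homology region (CHR) TTTGAA. Pola1 encodes the catalytic subunit of DNA polymerase alpha, Mcm6 a subunit of the replicative helicase, Kif11 the spindle motor Eg5, Smc2 a condensin subunit, and Utp20 a factor of the small ribosomal subunit.
Pola1, chrX:93632106-93632405, minus strand: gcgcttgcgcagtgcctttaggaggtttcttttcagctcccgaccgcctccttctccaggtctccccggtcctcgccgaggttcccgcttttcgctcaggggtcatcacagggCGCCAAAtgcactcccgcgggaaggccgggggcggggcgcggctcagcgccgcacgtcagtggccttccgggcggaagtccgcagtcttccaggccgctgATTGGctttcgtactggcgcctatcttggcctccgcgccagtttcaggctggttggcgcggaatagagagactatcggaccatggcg
Mcm6, chr1:128359656-128359955, minus strand: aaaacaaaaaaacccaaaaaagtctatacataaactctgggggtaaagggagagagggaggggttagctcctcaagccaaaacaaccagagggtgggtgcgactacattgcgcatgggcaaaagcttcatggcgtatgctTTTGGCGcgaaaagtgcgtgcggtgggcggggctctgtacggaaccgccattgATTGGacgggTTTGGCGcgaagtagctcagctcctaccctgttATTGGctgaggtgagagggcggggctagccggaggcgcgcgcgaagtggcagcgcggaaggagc
Kif11, chr19:37376132-37376431, plus strand: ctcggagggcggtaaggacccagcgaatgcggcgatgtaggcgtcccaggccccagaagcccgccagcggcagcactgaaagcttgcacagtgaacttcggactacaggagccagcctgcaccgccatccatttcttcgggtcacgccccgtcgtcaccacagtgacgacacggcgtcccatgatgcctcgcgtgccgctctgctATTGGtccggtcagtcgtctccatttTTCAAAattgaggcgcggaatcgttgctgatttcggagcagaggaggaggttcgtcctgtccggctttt
Smc2, chr4:52438971-52439270, plus strand: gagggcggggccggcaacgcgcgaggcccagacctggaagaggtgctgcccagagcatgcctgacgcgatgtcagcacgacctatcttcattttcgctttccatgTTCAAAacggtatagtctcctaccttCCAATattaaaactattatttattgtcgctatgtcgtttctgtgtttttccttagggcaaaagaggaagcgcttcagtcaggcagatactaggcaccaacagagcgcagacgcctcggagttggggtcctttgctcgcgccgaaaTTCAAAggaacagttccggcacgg
Dkc1, chrX:75095604-75095903, plus strand: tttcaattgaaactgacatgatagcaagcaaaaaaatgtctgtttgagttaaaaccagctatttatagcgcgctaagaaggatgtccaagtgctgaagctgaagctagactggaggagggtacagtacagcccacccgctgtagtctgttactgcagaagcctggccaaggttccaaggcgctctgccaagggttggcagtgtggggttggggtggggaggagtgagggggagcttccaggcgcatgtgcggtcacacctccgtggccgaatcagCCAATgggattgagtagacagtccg
Utp20, chr10:88826765-88827064, minus strand: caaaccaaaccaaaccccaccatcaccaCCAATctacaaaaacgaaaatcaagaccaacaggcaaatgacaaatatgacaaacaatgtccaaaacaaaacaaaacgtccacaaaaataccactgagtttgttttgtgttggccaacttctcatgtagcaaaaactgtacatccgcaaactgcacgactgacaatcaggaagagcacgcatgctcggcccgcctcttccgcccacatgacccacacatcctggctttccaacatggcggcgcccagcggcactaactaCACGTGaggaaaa

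Promoters of both replication genes held an E2F motif and a CCAAT box, those of both mitosis genes a CCAAT box and a CHR, and that of Utp20 a CCAAT box and an E-box, the latter 38 bases after the start site. The window of Dkc1 held a CCAAT box and no E-box. Kif11 has its CHR 19 bases and its CCAAT box 45 bases before the start site. Of the genes with a RefSeq window, an E2F motif stood in 17 of 26 in DNA replication (65.4%), 8 of 44 in ribosome biogenesis (18.2%) and 3 of 27 in mitosis and spindle (11.1%). A CHR stood in 21 of 27 in mitosis and spindle (77.8%), 4 of 26 in DNA replication (15.4%) and 6 of 44 in ribosome biogenesis (13.6%). For the CCAAT box these were 21 of 27 in mitosis and spindle (77.8%), 16 of 26 in DNA replication (61.5%) and 18 of 44 in ribosome biogenesis (40.9%). An E-box stood in 9 of 44 in ribosome biogenesis (20.5%), in 5 of 26 in DNA replication (19.2%), a similar share, and in 2 of 27 in mitosis and spindle (7.41%). The shares among the 19369 tested genes with a window were 6.78% for E2F, 17.6% for the CHR, 41.3% for CCAAT and 9.50% for the E-box. Among genes with all 7 tumors above the cerebella, 15.0% held an E-box and 12.1% an E2F motif, and among those with all 7 below, 6.09% and 4.25%. For CCAAT the shares above and below were 39.4% and 44.1%, and for the CHR 17.2% and 17%. Of the genes changed the same way in both types, an E-box stood in 3 of 6 lower and 0 of 1 higher genes with a window, too few to compare. A match shows only that these letters are in the window. The levels of these genes followed the list: Mcm6 was at 13.9 CPM in tumor 1, 157 to 249 CPM in tumors 2 to 4, 188 to 217 CPM in SHH MB and 41.5 to 71.7 CPM in the cerebella, and Kif11 at 6.69 CPM in tumor 1, 184 to 221 CPM in tumors 2 to 4, 200.2 to 218 CPM in SHH MB and 66.2 to 86.7 CPM in the cerebella. Smc2 was at 10.9 CPM in tumor 1 against 146 to 174 CPM in tumors 2 to 4. Pola1 was at 47.4 CPM in tumor 1, 137 to 165 CPM in tumors 2 to 4, 99.1 to 119 CPM in SHH MB and 32.1 to 47.3 CPM in the cerebella. Utp20 was above the cerebella in all 7 tumors, with 80.1 to 289.7 CPM and 76.1 to 82.8 CPM against 38.1 to 43.6 CPM.

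PRC2 and maintenance of DNA methylation had 0 of 15 passing (edgeR; 8 higher at an unadjusted p of at most 0.05, 3 with DESeq2) with similar medians of 0.62 and 0.55 in the 2 types, and 5 of 15 with all 7 tumors above the cerebella (5.49% of all genes). Without tumor 1, 6 of 15 rose and 3 did so in both types. Ezh2, the methyltransferase of PRC2, was at 50.1 CPM in tumor 1, 114 to 138 CPM in tumors 2 to 4, 157 to 185 CPM in SHH MB and 77.1 to 91.7 CPM in the cerebella. Of the BAF chromatin remodeling complex 0 of 22 passed (edgeR; 4 higher and 3 lower at an unadjusted p of at most 0.05, 1 and 1 with DESeq2), with medians of 0.22 and 0.22, and without tumor 1, 4 rose and 3 fell. For SHH signaling 0 of 13 passed in the mean (edgeR; 4 higher and 1 lower at an unadjusted p of at most 0.05, 1 higher with DESeq2), with medians of -0.36 in MYC/SMARCA4 tumors and 1.27 in SHH MB. Without tumor 1 the former was -0.08, close to 0, and 4 of 13 rose and 1 fell. Glycolysis and lactate likewise had medians on opposite sides, 1.35 and -0.53, with 0 of 22 passing (4 higher at an unadjusted p of at most 0.05, 2 with DESeq2), and without tumor 1, 4 rose and 1 fell. Egr1 was the 1 of 16 immediate early genes and Psat1 the 1 of 15 ATF4 response genes that rose, and without tumor 1, 3 and 4 rose. In the lists of G1 cyclins and CDKs (22 genes), Notch signaling (17), WNT inhibitors and targets (17), p53 targets (18), MHC class I and interferon response (17), presynaptic release (24), neuronal splicing factors (17), granule cell lineage factors (14) and mitochondrially encoded proteins (11) 0 genes passed (edgeR; at most 6 higher and 5 lower in a list at an unadjusted p of at most 0.05, and at most 3 and 2 with DESeq2). Without tumor 1, 9 of the 22 genes of G1 cyclins and CDKs rose and 1 fell, and in each of the other lists named here at most 3 rose and at most 3 fell.

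**Figure D4:**
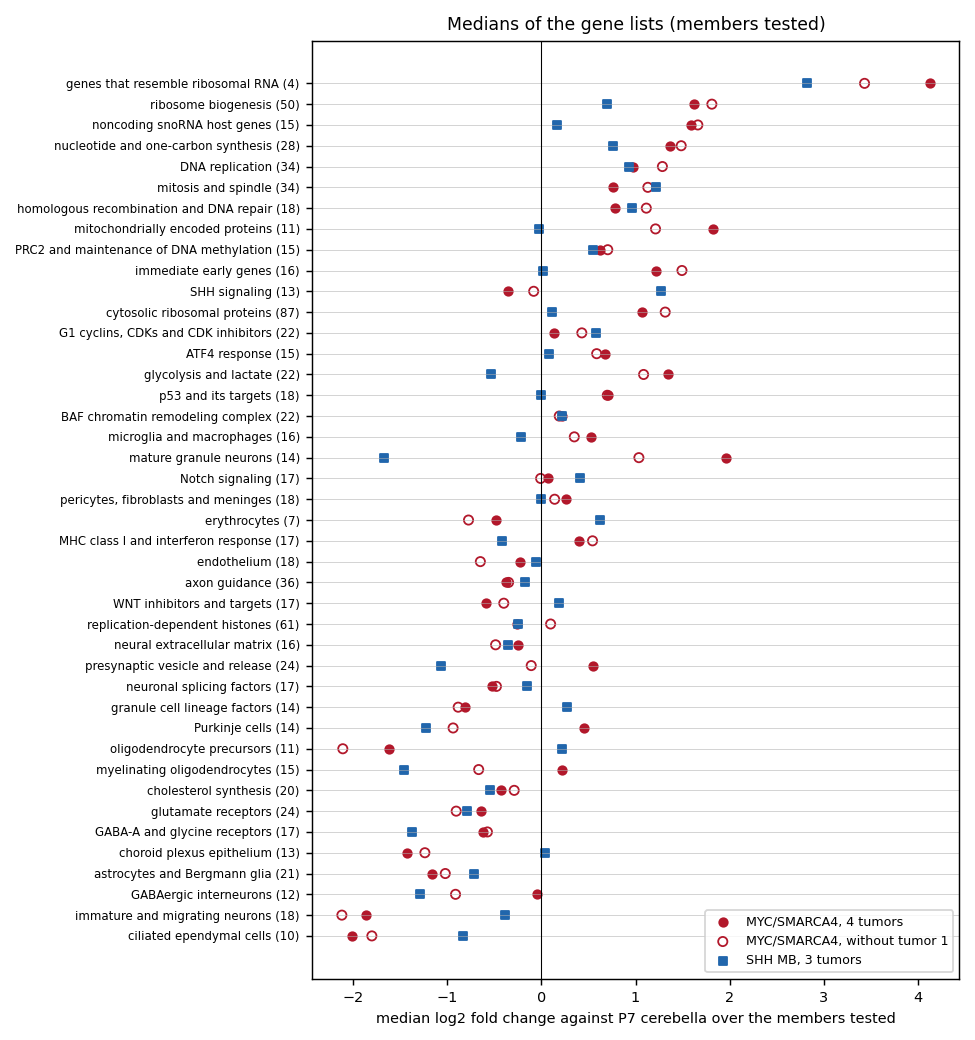
Median log2 fold change against P7 cerebella of 42 gene lists (number of members tested in brackets) in MYC/SMARCA4 tumors with all 4 tumors (filled red) and without tumor 1 (open red) and in SHH MB (blue squares). Ribosome biogenesis, nucleotide synthesis, DNA replication and mitosis lie right of 0 in both types, ependymal, astrocyte and immature neuron genes left of 0 in both, and mature granule neurons lie on opposite sides, at 1.96 and -1.67.

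Several lists of genes of neurons and glia had medians below 0 in both types. So did cholesterol synthesis, with -0.43 in MYC/SMARCA4 tumors and -0.55 in SHH MB, and in 6 of its 20 genes all 7 tumors were below the cerebella (4.28% of all genes). In the immature and migrating neuron list 2 of 18 fell (Islr2 and Kif21b), 0 rose and 16 did not pass, and in 10 of 18 all 7 tumors were below the cerebella, beside 4.28% of all genes. Without tumor 1, 12 of 18 fell in the mean (2.93% of all genes; edgeR), none of them in both types. The median was -1.87 in MYC/SMARCA4 tumors and -0.39 in SHH MB. Dcx, the microtubule protein of migrating neurons, was at 14.6, 40.67, 9.10 and 67.6 CPM in the MYC/SMARCA4 tumors, whereas SHH MB with 491 to 539 CPM and the cerebella with 538 to 637 CPM overlapped. Islr2, a membrane protein of growing axons, was at 6.94 to 23.5 CPM in MYC/SMARCA4 tumors, 316 to 334 CPM in SHH MB and 190.0 to 228 CPM in the cerebella, so that its fall in the mean stands beside a higher level in SHH MB. Both genes differed between the types.

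Among receptors, 2 of 17 GABA-A and glycine receptor genes (Glra2 and Gabrg3) and 1 of 24 glutamate receptor genes (Grin2d) fell. All 7 tumors were below the cerebella in 5 of the 17 and 4 of the 24, beside 4.28% of all genes. The medians were -0.62 and -1.38 in the 2 types for the former and -0.64 and -0.80 for the latter. Relative to the cerebella, the mean log2 level of the former in MYC/SMARCA4 tumors 1 to 4 was 0.19, -0.05, -2.03 and -0.52. For the latter it was 0.33, -0.3, -2.24 and -0.52, so that tumor 3 was the lowest of the 4 in both lists. Without tumor 1, 4 of 17 and 6 of 24 fell, 2 in each list in both types. Grin2d, an NMDA receptor subunit of developing neurons, was at 16.9, 11.2, 10.8 and 9.88 CPM in the MYC/SMARCA4 tumors, 17.2 to 17.7 CPM in SHH MB and 28.9 to 39.4 CPM in the cerebella. In GABAergic interneurons 1 of 12 fell (Sst) with medians of -0.05 and -1.29, and without tumor 1 the former median was -0.91 and 6 of 12 fell. In axon guidance 1 of 36 fell (Ephb1) and in neural extracellular matrix 1 of 16 (Tnc). Without tumor 1, 6 and 2 fell, and 2 genes of axon guidance rose.

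Astrocytes and Bergmann glia had 0 of 21 passing (edgeR; 11 lower at an unadjusted p of at most 0.05, 4 with DESeq2), yet in 10 of 21 all 7 tumors were below the cerebella (4.28% of all genes). Relative to the cerebella, the mean log2 level of this list in MYC/SMARCA4 tumors 1 to 4 was -1.77, -0.27, -3.03 and -0.8. Without tumor 1, 7 of 21 fell in the mean (2.93% of all genes; edgeR), none of them in both types. Aqp4, the water channel of astrocytes, was at 29.3, 221, 13.3 and 70.5 CPM in the MYC/SMARCA4 tumors, 342, 314 and 238 CPM in SHH MB and 699, 678 and 642 CPM in the cerebella. Its log2 fold change was -2.09 ± 0.57 in the mean (adjusted p = 0.131 by edgeR). With a spread for each group, 12 of 21 members fell (5.47% of all genes) and 7 did so in both types (1.12%). Of ciliated ependymal genes 1 of 10 fell (Foxj1), with medians of -2.02 and -0.83 and 4 of 10 below the cerebella in all 7 tumors (4.28% of all genes). Of choroid plexus genes 1 of 13 fell (Ttr), with medians of -1.43 and 0.04, and of oligodendrocyte precursor genes 1 of 11 (Gpr17), with medians of -1.62 and 0.22. Without tumor 1, 3, 2 and 5 members of these 3 lists fell.

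For the lists of mature granule neurons, of Purkinje cells and of myelinating oligodendrocytes the medians of the types lay on opposite sides of 0. For mature granule neurons the median was 1.96 in MYC/SMARCA4 tumors and -1.67 in SHH MB, and 1 of 14 fell in the mean (Neurod2). Gabra6, the GABA-A receptor subunit of mature granule neurons, was at 388, 175, 15.5 and 78.1 CPM in tumors 1 to 4, 2.27 to 3.54 CPM in SHH MB and 9.70 to 18.3 CPM in the cerebella. Without tumor 1 the list median was still 1.04 in MYC/SMARCA4 tumors and 1 of 14 fell. For Purkinje cells the medians were 0.45 and -1.23, and without tumor 1 the former was -0.94. For myelinating oligodendrocytes they were 0.22 and -1.46, and without tumor 1 the former was -0.67. Pvalb, a calcium buffer of Purkinje cells and interneurons, ranged from 573 CPM in tumor 1 to 8.40 CPM in tumor 3, and Mbp, the myelin basic protein, from 2289 to 34.0 CPM. Without tumor 1, 6 of 14 Purkinje cell genes and 4 of 15 myelin genes fell in the mean, beside 2.93% of all genes. Microglia and macrophages (0 of 16 passing), endothelium (0 of 18), pericytes, fibroblasts and meninges (0 of 18) and erythrocytes (0 of 7) had medians in the mean of both types between -0.08 and 0.21, with at most 2 members at an unadjusted p of at most 0.05 and at most 1 with DESeq2. Without tumor 1 at most 1 gene rose and 1 fell in each of them.

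Signals of ribosomal RNA also rose in the mean of both types. Rn18s-rs5, an 18S ribosomal RNA copy, was at 8542, 5604, 2293 and 1532 CPM in the MYC/SMARCA4 tumors, 2455, 2612 and 2061 CPM in SHH MB and at most 294 CPM in the cerebella, and 3 of 4 genes that resemble ribosomal RNA passed (Rn18s-rs5, Lars2 and Gm15564), and 4 of 4 without tumor 1. As a share of all counts these 4 genes took 1.51% to 1.96%, 0.603% to 0.874% and 0.353% to 0.412% in the 3 groups. Libraries had been depleted of ribosomal RNA, and Lars2, which encodes a mitochondrial tRNA synthetase, holds a stretch that collects such reads. Mitochondrially encoded proteins took 2.09% to 5.72% in MYC/SMARCA4 tumors and 1.09% to 1.498% elsewhere. When the 4 genes and the mitochondrial genes were left out of the libraries, 36 genes rose, 139 fell, and 2 and 11 changed the same way. Another gene annotated as ribosomal RNA, n-R5s136, is outside the 4 and was not left out. With all libraries it rose by 3.88 ± 0.61 on the log2 scale in the mean of both types (adjusted p = 0.0193 by edgeR). The part of ribosomal RNA and mitochondrial signals in the rise of ribosome biogenesis genes was not tested.

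Other genes went opposite ways. In 16 genes (0.0534% of all genes), against the 12 changed the same way, both types passed with opposite signs, 15 of them (0.0501%) higher in SHH MB and lower in MYC/SMARCA4 tumors and 1 (0.00334%) the reverse. The 3 with the smallest larger p of the 2 contrasts were E130114P18Rik, Tbata, a thymus and brain protein, and Loxl1, a lysyl oxidase that crosslinks elastin. Tbata was at 5.25 to 7.70 CPM in MYC/SMARCA4 tumors, 82.9 to 134 CPM in SHH MB and 13.4 to 22.2 CPM in the cerebella, and Loxl1 at 4.76 to 9.17, 69.2 to 83.2 and 13.5 to 19.1 CPM in the same order. Others, chosen after their values were seen, were Cdh20, a cadherin, at 8.17 to 17.3, 213 to 225 and 23.3 to 26.6 CPM, Barhl1, a homeobox factor of the granule cell lineage, at 11.2 to 17.9, 314 to 415 and 109 to 133 CPM, and Olig2, a factor of glial and SHH-type progenitors, at 3.64 to 6.48, 58.5 to 73.8 and 9.99 to 20.7 CPM. The reverse held for Gm11942, a processed pseudogene, at 39.9 to 156, 2.18 to 3.69 and 19.4 to 46.2 CPM.

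**Figure D5:**
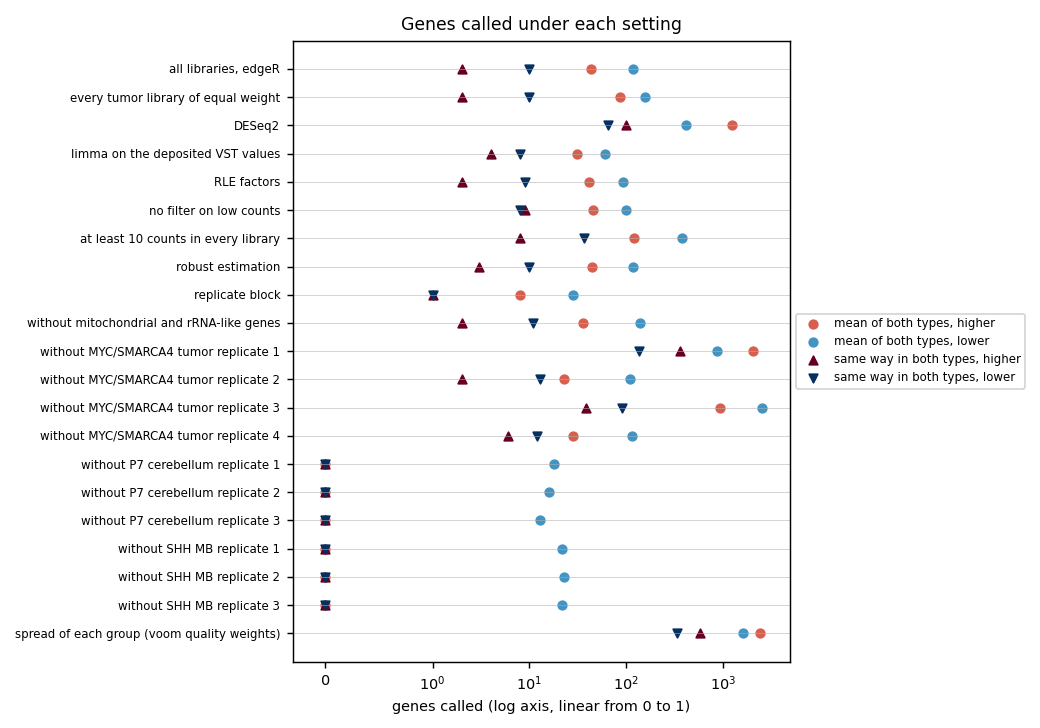
Number of genes called under each setting (rows) on a log axis that is linear from 0 to 1: circles show the mean of both types and triangles genes changed the same way in both types. With all libraries 43 and 118 genes were called in the mean and 2 and 10 the same way; without MYC/SMARCA4 tumor 1 these were 2042, 875, 365 and 136, and without any cerebellum or SHH MB no gene changed the same way.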

How the data were processed

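Total RNA from FFPE tissue was depleted of ribosomal RNA and sequenced. Per the study's methods and the labels, the authors trimmed reads with Trimmomatic 0.38.1, aligned them with STAR 2.7.8a to GRCm39 and counted them per gene with featureCounts 2.0.1. Strand use in counting is not given in the sources used here, so reads of overlapping genes cannot be told apart. The authors deposited raw counts for 10 libraries and a table of log2-scale values from the variance-stabilizing transformation (VST) of DESeq2, which was used for 1 alternative only.

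Counts were analysed with edgeR 4.0.16 (R 4.3.3; filterByExpr, TMM, quasi-likelihood F test, Benjamini-Hochberg adjustment over 29952 genes). All 3 groups shared 1 fit, with MYC/SMARCA4 tumors and SHH MB each weighted 0.5 against P7 cerebella, and each type also tested alone against the same 3 cerebella. Groups came from the sample labels. CPM values use TMM library sizes, and log2 CPM a prior count of 2. Alternatives used DESeq2 1.42.0, limma 3.58.1, other factors, filters, weights and thresholds, a replicate block and each library left out. Scripts were tested on simulated data.

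The comparison and the 42 gene lists were chosen with earlier results of these data known. Lists are described by counts and medians, without a test. Named genes were shared genes with regular symbols, no overlap between tumors and cerebella and at least 20 counts in each library of the higher side (up to 8 by size and 5 by p each way), up to 3 members each way per list by p, members needed to describe a list, 3 genes with opposite calls each way, and Myc, Mycn, Smarca4 and Smo. Of the genes changed the same way in both types, 2 are not reported here by name. Other genes among those that rose or fell in the mean were named after their values were seen. Promoters are from RefSeq (GRCm38.p6), found for 19369 of the tested genes by symbol, and gene positions from GENCODE release M39. Total counts of 5663491 to 9352109 per library limit precision for low genes.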

Additional observations from a re-analysis of the deposited data

Results flagged for a closer look

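For 37 of the 79 genes examined, the 2 tumor types differed in their log2 fold change against the same cerebella (MYC/SMARCA4 minus SHH MB; edgeR, adjusted p between 6.31e-06 and 0.0439 over all genes), beside 4.68% of all genes. Of these, 7 had been chosen for opposite calls, which fixes a type difference, and 30 were among the other 72. Since many of the genes were chosen for calls in the same libraries, nothing is read from this share. The difference among the genes changed the same way in both types was -2.23 for Glra2, -1.57 for Dgkk and -1.15 for Whrn. The difference among the genes of the models was 4.31 for Myc, -5.01 for Mycn and -1.39 for Smarca4. The difference among host genes of small nucleolar RNAs and a nucleolar factor was 1.5 for Snhg7, 1.18 for Snhg1, 1.23 for Gas5, 1.95 for Zfas1, 1.95 for Snhg4 and 1.47 for Gnl3. The difference among the other genes that rose in the mean was -1.18 for Slc66a2, -2.6 for Lama5, -2.54 for Akna, 2 for Egr1, 1.35 for Hspa9 and 1.55 for Rragd. The difference among the genes that fell in the mean was -1.51 for Csmd2, -1.68 for Frem2, -4.04 for Tnc, -8.94 for Ttr, -2.42 for Foxj1, -2.71 for Gpr17, -4.56 for Islr2, -1.78 for Kif21b and -1.51 for Pax3. The difference among genes with opposite calls was -5.87 for E130114P18Rik, -4.2 for Tbata, -3.48 for Loxl1, -4.33 for Cdh20, -4.78 for Barhl1, -3.87 for Olig2 and 5.16 for Gm11942. The difference among genes of neurons that did not pass in the mean was 4.77 for Pvalb, 5.84 for Gabra6 and -3.98 for Dcx.

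In 15 of 121 sets of 4 MYC/SMARCA4 tumors, 1 tumor lay apart from the others by Dixon's ratio (gap to the nearest tumor over the whole range), where chance gives about 1 in 20 for independent sets. These sets are not independent, since genes and lists of cell division repeat each other. Dkc1, Pola1, Mcm6, Kif11 and Smc2 were among genes chosen by their p without tumor 1. Nothing is therefore read from this count. For the level of Smo (ratio 0.969), Dkc1 (ratio 0.882), Csmd2 (ratio 0.922), Pola1 (ratio 0.849), Mcm6 (ratio 0.839), Kif11 (ratio 0.947), Smc2 (ratio 0.934), Mki67 (ratio 0.908) and Mcm2 (ratio 0.868) this was tumor 1. For the level of Snhg1 (ratio 0.839) this was tumor 4. For the level of Foxj1 (ratio 0.964) this was tumor 3. For the mean level of the lists mitosis and spindle (ratio 0.954), G1 cyclins, CDKs and CDK inhibitors (ratio 0.832) and cytosolic ribosomal proteins (ratio 0.917) this was tumor 1. For the mean level of the list neural extracellular matrix (ratio 0.9) this was tumor 3.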

How the results depend on the processing

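Numbers of genes changed depended strongly on the libraries and the tool. Among the 79 genes examined, many of them chosen for calls in these libraries, no log2 fold change past the threshold turned its sign. Other genes were not examined for this. Among values that did not pass, the sign in the mean turned under some alternatives for E130114P18Rik, Olig2 and Pvalb and for the medians of 6 lists close to 0, such as mature granule neurons (0.20, and -0.34 without tumor 1). With all libraries 43 genes rose and 118 fell in the mean of both types, and 2 and 10 changed the same way in both. Leaving out each library in turn gave 0 to 2042 higher and 13 to 2541 lower in the mean, and 0 to 365 higher and 0 to 136 lower the same way. The highest counts came without MYC/SMARCA4 tumor 1 or 3, and the lowest without a P7 cerebellum or an SHH MB. Equal weight of all 7 tumors gave 87 higher in the mean. DESeq2 gave 1257 and 421 in the mean, of which 74.9% were higher against 26.7% in edgeR, and 100 and 65 the same way. limma on the deposited values gave 60 lower in the mean and 4 higher the same way. Without a filter on low counts 9 were higher the same way, and with at least 10 counts in every library 122 and 382 changed in the mean and 8 and 37 the same way. Stricter thresholds (adjusted p up to 0.01) left 0 higher and 24 lower in the mean beyond a log2 fold change of 1.5, 0 and 11 beyond 2.5, and 0 and 0 the same way under either. Chosen after seeing the data, a spread for each group gave 2421 and 1638 in the mean and 588 and 334 the same way, and fits of each type alone 27 and 99 the same way. The cause of these differences was not tested.

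With the replicate number as a block, 8 and 28 genes changed in the mean and 1 and 1 the same way. Samples of 1 number did not deviate together (correlations of -0.274 to 0.162), and nothing in the labels says that a number marks a shared litter or day. Of the log2 fold changes of named genes under all alternatives, 1163 stayed on their side of the threshold, 340 lost it and 65 gained it. Of list medians, 542 stayed within the largest standard deviation of the list's mean level in any group and 2 moved by more. This limit was wide where the MYC/SMARCA4 tumors differed from each other, so that few shifts could exceed it. Stability of the medians is therefore not read from these counts. With the spread between the MYC/SMARCA4 tumors, a gene that did not pass is not shown to be unchanged. A count of 3, below which a level is not distinguished from 0, corresponds to 0.307 to 0.744 CPM.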
